A study of Mus musculus with 4 samples.

Results

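Neurexins, neuroligins and the leucine-rich repeat transmembrane (LRRTM) proteins are adhesion proteins that meet across the synaptic cleft. The genes described here are 2 neurexins (Nrxn2 and Nrxn3), 3 neuroligins (Nlgn1, Nlgn2 and Nlgn3) and 4 LRRTM genes (Lrrtm1 to Lrrtm4). They were taken by name from the array's gene annotation, and the list was chosen with earlier results of these data known. Each of the 9 genes had 1 row among the 21789 rows tested, which cover 19938 genes. Ketamine, a blocker of NMDA receptors, was injected daily at 30 mg/kg into ICR mice, an outbred stock, and control mice received saline. The methods give mice aged 1 month at the start and 3 months of treatment, and 2 animals per group were put on arrays. By the methods, mice were tested in a water maze before they were killed. The titles give prefrontal cortex for all 4 arrays. The titles name 2 arrays saline and 2 ketamine, while the source field of the same arrays states the opposite treatment, so groups are named here by title and every sign below would turn if the source field were right. The labels give female mice and the methods male mice. The series text gives 1 array per mouse without technical replicates, and the p-values rest on the spread among these 4 arrays alone.

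Neurexins sit in the presynaptic membrane and act as a hub that binds many postsynaptic and secreted partners. Neuroligins and LRRTM proteins are postsynaptic ligands of neurexins, and they compete for overlapping sites. Nlgn1 is known mainly from excitatory synapses, Nlgn2 from inhibitory synapses and Nlgn3 from both, while LRRTM proteins belong to excitatory synapses. In the cortex these contacts help to shape synapses and to hold receptors for glutamate and GABA in place.

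Most of these genes were lower on the arrays titled ketamine. By limma, 6 of the 9 genes (66.7%) were lower and 1 (11.1%) was higher at an adjusted p under 0.05, while 9.71% of all rows tested were lower and 23.4% higher. Past 1.3-fold the same 6 genes were lower and the same 1 higher, beside 9.87% and 24.3% of all rows. The median log2 difference of the 9 genes was -0.49, against 0.13 for all rows tested. With each array centred on its median, which removes that general shift, the median of the 9 genes was -0.63, and limma again called 6 of them lower and 1 higher, while 14.7% of all rows were lower and 14.7% higher. In all 9 genes the values of the 2 groups did not overlap, as in 69.9% of all rows. The 9 genes read above the 95th percentile of 1023 olfactory receptor rows, from 4.20 to 4.56, on all 4 arrays. Fewer cells of a type and less RNA per cell cannot be told apart in such tissue samples.

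Markers of cerebellum and of cortex differed between the groups as well, while the titles give prefrontal cortex for all 4 arrays. The marker lists were chosen with earlier results of these data known. Limma called 17 of 18 measured cerebellar markers (94.4%) higher on the arrays titled ketamine, beside 23.4% of all rows. Pcp4, at 0.27, did not pass. The median level of the cerebellar list was 6.05 and 5.47 on the arrays titled saline and 9.67 and 9.69 on those titled ketamine. Gabra6, known from cerebellar granule cells, read 6.73 and 3.28 on the arrays titled saline and 11.65 and 11.60 on those titled ketamine. The arrays titled saline lay far apart, and the second was below its olfactory receptor percentile of 4.43, so that the size of the difference is not resolved. Cbln3 read 5.75 and 4.52 against 11.13 and 11.17, and Ppp1r17 4.94 and 3.92 against 10.08 and 9.91, with 3.92 below that percentile too. Limma called 12 of 14 measured markers of cortical neurons and forebrain (85.7%) lower, beside 9.71% of all rows. Emx1, at -0.36, and Neurod2, at 0.30, did not pass. The list medians were 7.83 and 7.78 against 6.03 and 5.98. Of the genes of forebrain neurons, Nrgn had a log2 difference of -4.64. Tbr1 read 8.37 and 8.44 on the arrays titled saline and 3.73 and 3.69 on those titled ketamine, and Ddn 10.41 and 10.44 against 4.12 and 4.68. Both titled ketamine values of Tbr1 and the first of Ddn were below the olfactory receptor percentiles of 4.56 and 4.46, so that the sizes of these differences are not resolved. Of 10 microglial markers limma called 9 lower (90%), beside 9.71% of all rows, and Trem2, at 0.093, did not pass. Of 8 choroid plexus markers 7 were called higher (87.5%), beside 23.4% of all rows, and Folr1, at 0.30, did not pass. Of 10 astrocyte markers 5 were called higher (50%) and 1, Slc1a2 at -0.64, lower (10%), beside 23.4% and 9.71%. Limma called 0 of 10 oligodendrocyte markers, beside 33.2% of all rows, and 0 of these markers had an unadjusted p under 0.05. Treatment, title and these marker differences go together on the 4 arrays and cannot be told apart for any gene below. Whether the tissue itself differed was not tested.

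The bases upstream of Lrrtm1, Lrrtm4 and Lrrtm3 are shown, as the members farthest from 0 in each direction. Lrrtm1 and Lrrtm4 had the lowest log2 differences, and Lrrtm3 was the member called higher. Each window holds the 250 bases before 1 RefSeq start site of the gene in GRCm38.p6, the reference genome of C57BL/6J and not of the ICR mice, read 5′ to 3′ on the gene's strand. Windows were found for 6 of the 9 genes. Capitals mark matches to TATAAA (the TATA box) or to CANNTG (the E-box, bound by basic helix-loop-helix factors), on either strand.
Lrrtm1, chr6:77242227-77242476, plus strand: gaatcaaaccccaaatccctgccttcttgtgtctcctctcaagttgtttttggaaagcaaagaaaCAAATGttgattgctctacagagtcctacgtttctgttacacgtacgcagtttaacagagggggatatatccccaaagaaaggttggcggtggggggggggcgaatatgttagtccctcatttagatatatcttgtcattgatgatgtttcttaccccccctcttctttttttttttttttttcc
Lrrtm4, chr6:80018627-80018876, plus strand: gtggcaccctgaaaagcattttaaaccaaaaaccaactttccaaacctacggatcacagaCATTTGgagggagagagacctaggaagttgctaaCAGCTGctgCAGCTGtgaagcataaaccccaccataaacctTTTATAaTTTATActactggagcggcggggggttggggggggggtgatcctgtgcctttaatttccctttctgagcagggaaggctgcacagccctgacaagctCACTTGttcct
Lrrtm3, chr10:64090256-64090505, minus strand: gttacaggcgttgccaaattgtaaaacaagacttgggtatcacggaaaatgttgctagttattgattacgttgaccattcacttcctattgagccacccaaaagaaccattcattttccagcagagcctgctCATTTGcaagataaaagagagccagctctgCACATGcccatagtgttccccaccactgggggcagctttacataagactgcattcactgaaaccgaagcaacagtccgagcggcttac
The E-box letters occurred 1 time before Lrrtm1, 4 times before Lrrtm4 and 2 times before Lrrtm3, and 66.2% of the 32851 windows in the table held them. TATAAA occurred 2 times before Lrrtm4 and in 12.4% of all windows. The 3 windows held neither CCAAT (33.8% of all windows), GGGCGG (32.7%) nor TGACGTCA (1.55%), each searched on both strands. No motif overlapped another kind of motif here. These matches describe letters only and are not evidence of binding.

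Of the neurexins, the presynaptic receptors, Nrxn3 was lower and Nrxn2 did not pass the test. Nrxn3 read 9.23 and 9.25 on the arrays titled saline and 8.87 and 8.62 on those titled ketamine, on the log2 scale, where a step of 1 is a doubling. Both arrays titled ketamine were lower, and the gap between them was larger than that between the arrays titled saline. Nrxn3 differed by -0.49 on the log2 scale (standard error 0.123, adjusted p = 0.0210 from limma), so that its level was 71.0% of that on the arrays titled saline. Nrxn2 read 8.20 and 8.31 against 8.32 and 8.33. All 4 arrays were close, and the log2 difference of 0.067 did not pass limma (95% confidence interval -0.19 to 0.32, adjusted p = 0.663). With the arrays centred on their medians the difference of Nrxn2 was -0.069, on the other side of 0. Whether the log2 differences of the neurexins differ from each other was not tested.

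Among the neuroligins, Nlgn1 and Nlgn3 were lower and Nlgn2 did not pass the test. Nlgn1, the form of excitatory synapses, read 8.50 and 8.34 on the arrays titled saline and 7.79 and 7.83 on those titled ketamine. Both arrays titled ketamine lay well below the other pair. Its log2 difference came to -0.61 (standard error 0.112, adjusted p = 0.00652 from limma), or 65.4% of the titled saline level. Nlgn3, found at both kinds of synapse, read 9.12 and 9.09 against 8.68 and 8.62. Its arrays agreed closely within each group, with a largest gap of 0.0601. Nlgn3 differed by -0.45 on the log2 scale (standard error 0.105, adjusted p = 0.0161 from limma), 7.52 times that gap. Nlgn2, the form of inhibitory synapses, read 7.80 and 8.01 against 7.76 and 7.61. The lower array titled saline was close to the higher array titled ketamine. Its log2 difference of -0.22 was of the size of the gap between the arrays titled saline, 0.207, and did not pass limma (95% confidence interval -0.51 to 0.069, adjusted p = 0.207). The difference of Nlgn2 ran from -0.33 to -0.12 with 1 array left out and was -0.36 with the arrays centred on their medians (adjusted p = 0.0598 from limma).

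**Figure D1:**
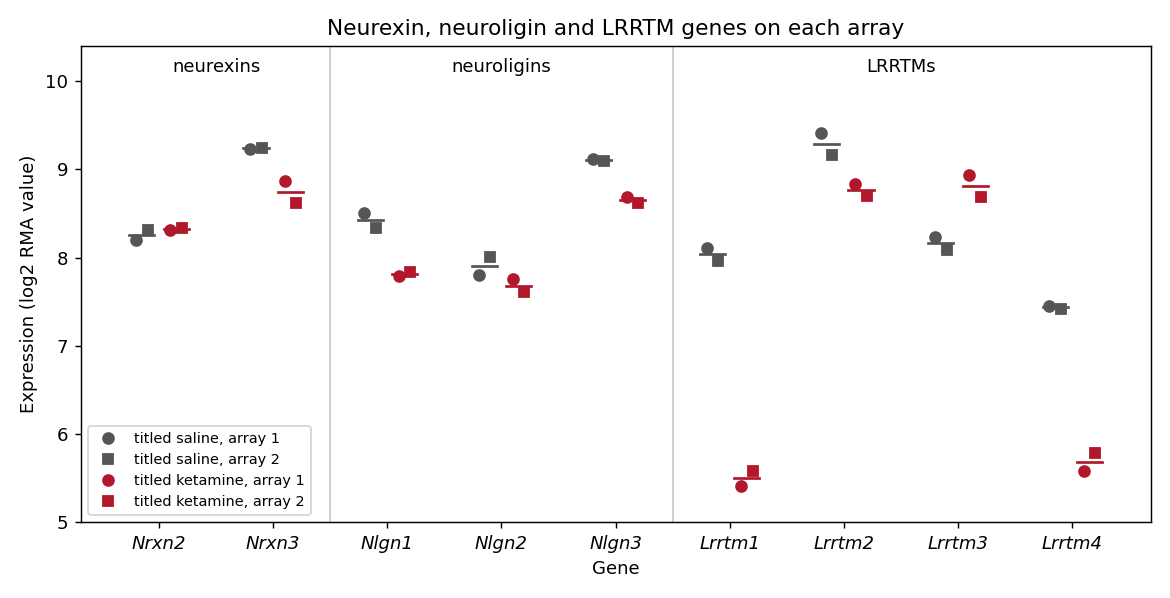
Expression on the log2 scale (y axis) of the 9 genes (x axis) on each array, in grey for arrays titled saline and red for arrays titled ketamine, with circles for array 1, squares for array 2 and bars for group means. Lrrtm1 and Lrrtm4 lie between 5.41 and 5.78 on the arrays titled ketamine, and Lrrtm3 is the gene with both red points clearly above the grey ones.

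The LRRTM genes showed the widest range, with 3 lower and 1 higher. Lrrtm1, a postsynaptic neurexin ligand, read 8.11 and 7.96 on the arrays titled saline and 5.41 and 5.59 on those titled ketamine. Both arrays titled ketamine stood far below the other pair and close to each other. Its log2 difference came to -2.54 (standard error 0.119, adjusted p = 3.05e-05 from limma), which is 14.8 times the largest gap within a group and leaves 17.2% of the titled saline level. Of all rows tested, 0.294% had a lower difference.
Lrrtm4, which also binds heparan sulfate proteoglycans of the glypican family, read 7.46 and 7.42 against 5.58 and 5.78. The arrays of a group were again close to each other and the groups far apart. Lrrtm4 differed by -1.76 on the log2 scale (standard error 0.117, adjusted p = 9.55e-05 from limma), or 29.6% of the titled saline level. The 95% confidence intervals of Lrrtm1 (-2.82 to -2.26) and Lrrtm4 (-2.03 to -1.48) did not overlap those of the other 7 genes.
Lrrtm2, a neurexin ligand that helps to hold AMPA receptors at synapses, read 9.42 and 9.17 against 8.84 and 8.70. Both arrays titled ketamine were below both others. Lrrtm2 differed by -0.52 on the log2 scale (standard error 0.128, adjusted p = 0.0201 from limma), 2.08 times the largest gap within a group.
Lrrtm3, the paralog that was higher, read 8.24 and 8.09 on the arrays titled saline and 8.93 and 8.69 on those titled ketamine. Both arrays titled ketamine were above both others. Lrrtm3 was higher by 0.65 on the log2 scale (standard error 0.129, adjusted p = 0.00876 from limma), or 157% of the titled saline level, and 0.51 (adjusted p = 0.0182 from limma) with the arrays centred on their medians.

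**Figure D2:**
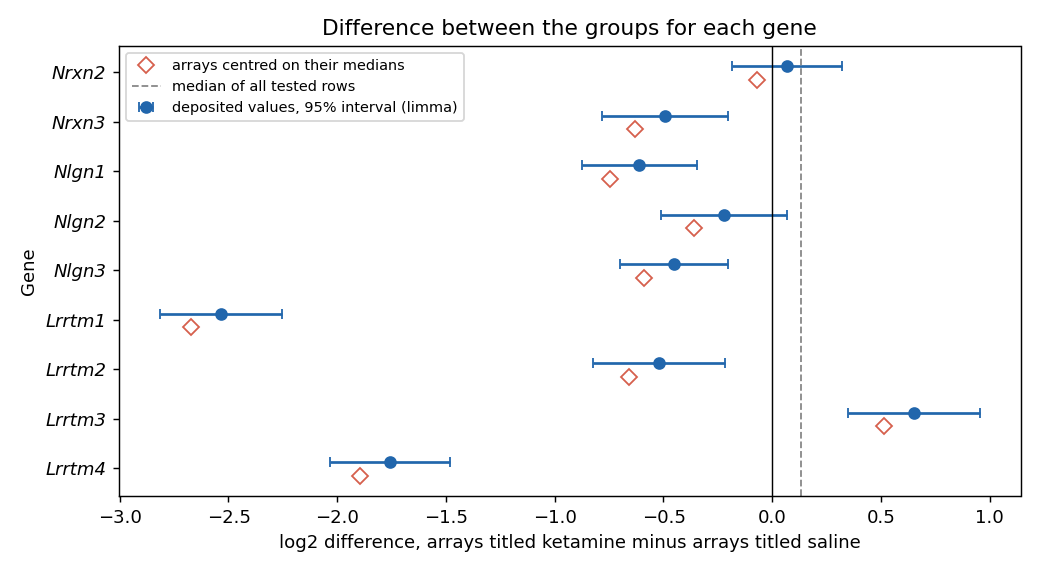
Log2 difference between arrays titled ketamine and arrays titled saline (x axis) for each gene (y axis), as filled circles with 95% confidence intervals from limma and as open diamonds after centring each array on its median. The dashed line is the median of all rows tested, 0.13. Lrrtm1 at -2.54 and Lrrtm4 at -1.76 stand apart from the other genes, and the intervals of Nrxn2 and Nlgn2 hold 0.

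Of the LRRTM genes, 3 lie inside genes of alpha-catenins, the actin-linked partners of cadherins, in the RefSeq table of GRCm38.p6. The catenin genes were added for this position after the values of the LRRTM genes had been seen. Ctnna2, the neuronal alpha-catenin, spans Lrrtm1 and read 8.53 and 8.58 on the arrays titled saline and 7.88 and 8.02 on those titled ketamine. It was lower too, with a log2 difference of -0.61 (standard error 0.111, adjusted p = 0.00642 from limma), and its 95% confidence interval (-0.87 to -0.34) did not overlap that of Lrrtm1. Ctnna3 spans Lrrtm3 and read 4.37 and 4.48 against 5.94 and 6.40. It was higher, as was Lrrtm3, with a log2 difference of 1.75 (standard error 0.164, adjusted p = 0.000391 from limma), and on the arrays titled saline it lay just above the olfactory receptor percentiles of 4.20 and 4.43. Ctnna1, the widely expressed alpha-catenin, spans Lrrtm2 and read 8.09 and 7.95 against 8.24 and 8.29. Its log2 difference of 0.25 did not pass limma (95% confidence interval -0.0087 to 0.51, adjusted p = 0.122), while Lrrtm2 was lower. Lrrtm4 lies in no other coding gene of that table. Whether probes of an LRRTM gene also read RNA of the catenin gene around it was not tested.

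**Figure D3:**
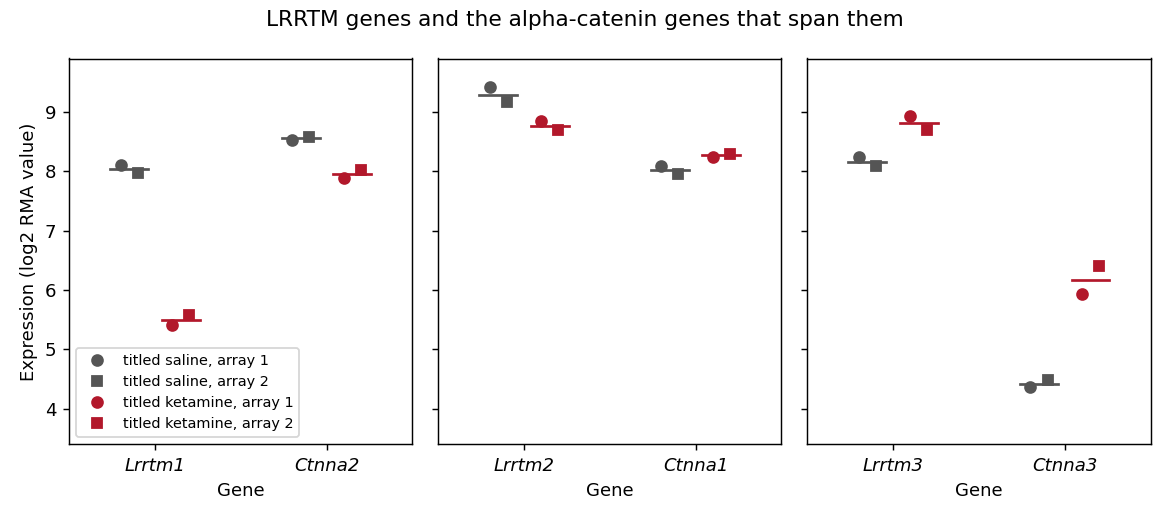
Expression on the log2 scale (y axis) of 3 LRRTM genes and the alpha-catenin gene that spans each (x axis), with grey points for arrays titled saline, red points for arrays titled ketamine, circles for array 1, squares for array 2 and bars for group means. Lrrtm1 and Ctnna2 are lower on both red points, Lrrtm3 and Ctnna3 higher, and Lrrtm2 is lower while Ctnna1 lies at 8.24 and 8.29 against 8.09 and 7.95. Levels of different genes cannot be compared on this axis.

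The pattern over the 4 arrays was compared with that of all rows at or above the median level, as the Euclidean distance between values centred on each gene's own mean. Nearest to Lrrtm1 were Kcnh7, a potassium channel gene (distance 0.104), Cpne4, which encodes a copine (0.115), and St6galnac5, which encodes a sialyltransferase (0.152), with log2 differences of -2.44, -2.58 and -2.68. Nearest to Lrrtm3 were Numa1, which encodes a protein of the mitotic spindle (distance 0.0211), the protocadherin gene Pcdhb15 (0.0316) and the chromatin remodeller gene Chd9 (0.0366), with log2 differences of 0.63, 0.65 and 0.64. With 4 arrays in 2 groups, such a distance mostly reflects the size of the group difference.

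Further genes of the trans-synaptic complex went both ways. Over 5 lists of partners, 101 of 107 genes were measured, and by limma 41 (40.6%) were lower and 16 (15.8%) higher on the arrays titled ketamine, beside the 9.71% and 23.4% of all rows. With the arrays centred on their medians 46 were lower and 11 higher, beside 14.7% of all rows each way. The median log2 difference of the 101 genes was -0.15. These lists, too, were chosen with earlier results of these data known.
Of 24 other ligands of neurexins, 14 (58.3%) were lower and 3 (12.5%) higher, beside 9.71% and 23.4% of all rows. The median log2 difference of these 24 genes was -0.45. Cbln1, the cerebellin that links neurexins to delta glutamate receptors on Purkinje cells, read 7.16 and 6.61 on the arrays titled saline and 10.85 and 10.83 on those titled ketamine, higher by 3.96 on the log2 scale (adjusted p = 2.84e-05 from limma). Its forebrain paralog Cbln2 went the other way, at 8.48 and 8.23 against 5.19 and 6.25, a log2 difference of -2.64 (adjusted p = 0.00102 from limma). Tafa1, which encodes a secreted neurexin ligand, read 8.88 on both arrays titled saline and 5.89 and 6.17 on those titled ketamine, which gave a log2 difference of -2.85. The other 2 genes that were higher were Nxph4, a neurexophilin, at 0.71 and Car10, a carbonic anhydrase-like neurexin ligand, at 0.73.
Of 13 surface and secreted proteins listed as partners of neuroligins and LRRTM proteins, 3 were lower (23.1%) and 2 higher (15.4%). Their direct binding was not tested. Of all rows 9.71% were lower and 23.4% higher. The lower ones were Gpc4, the glypican that binds Lrrtm4, at -0.87 on the log2 scale, Gpc5, another glypican, at -0.71 and Mdga2, which blocks neuroligins from neurexins, at -0.69. The higher ones were Sparc, a matrix protein secreted by glia, at 0.82 and Adam10, a protease that sheds surface proteins including neuroligins, at 0.73.

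Scaffolds and adaptors inside the cell gave 8 lower (36.4%) and 6 higher (27.3%) of 22 measured, the latter near the 23.4% of all rows. With the arrays centred on their medians the counts were 9 lower and 3 higher, beside 14.7% of all rows each way. Gphn, Epb41l3 and Gopc lost their calls and Cask gained one. Dlgap2, which links the postsynaptic scaffolds PSD-95 and Shank, read 7.56 and 7.68 on the arrays titled saline and 5.20 and 5.58 on those titled ketamine, which gave a log2 difference of -2.23 (adjusted p = 9.52e-05 from limma). Lin7a, an adaptor of the CASK complex, read 7.71 and 7.54 against 9.33 and 9.14, a log2 difference of 1.61, and Shank2 was higher by 1.53. Among other adhesion proteins that organise synapses, 15 of 33 (45.5%) were lower and 3 (9.09%) higher, beside 9.71% and 23.4% of all rows. The largest differences were those of the teneurin gene Tenm3 at -2.00, the interleukin receptor-like gene Il1rapl2 at -1.81 and Flrt2, a ligand of latrophilins, at -1.81. Il1rapl2 read 3.08 and 3.51 on the arrays titled ketamine, below the olfactory receptor percentiles of 4.56 and 4.46, so that the size of its difference is not resolved. The 3 that were higher were Tenm1 at 0.93, and the nectin-like genes Cadm3 at 0.90 and Cadm4 at 0.40. With the arrays centred on their medians Cadm4, at 0.26, did not pass limma (adjusted p = 0.133). After this centring 18 of the 33 were lower and 2 higher, beside 14.7% of all rows each way.
Of 9 regulators of neurexin splicing, Khdrbs3, which controls the use of a neurexin exon that decides between ligands, was lower (11.1%) and Nova1 and Rbfox3 were higher (22.2%), shares near the 9.71% and 23.4% of all rows. Khdrbs3 read 9.21 on both arrays titled saline and 7.13 and 7.28 on those titled ketamine, which gave a log2 difference of -2.01 (adjusted p = 4.80e-05 from limma). Its deposited values on the arrays titled saline were equal, so this p-value takes no spread of Khdrbs3 from that group. Nova1 had a log2 difference of 0.75 and Rbfox3 of 0.38, and Nova2, at -0.44, did not pass limma (adjusted p = 0.0560). With the arrays centred on their medians Rbfox3, at 0.24, lost its call (adjusted p = 0.135 from limma). Nova2, at -0.57, gained one (adjusted p = 0.0150 from limma). The counts were then 2 lower and 1 higher, beside 14.7% of all rows each way. Values per transcript cluster do not show which neurexin exons were used.

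**Figure D4:**
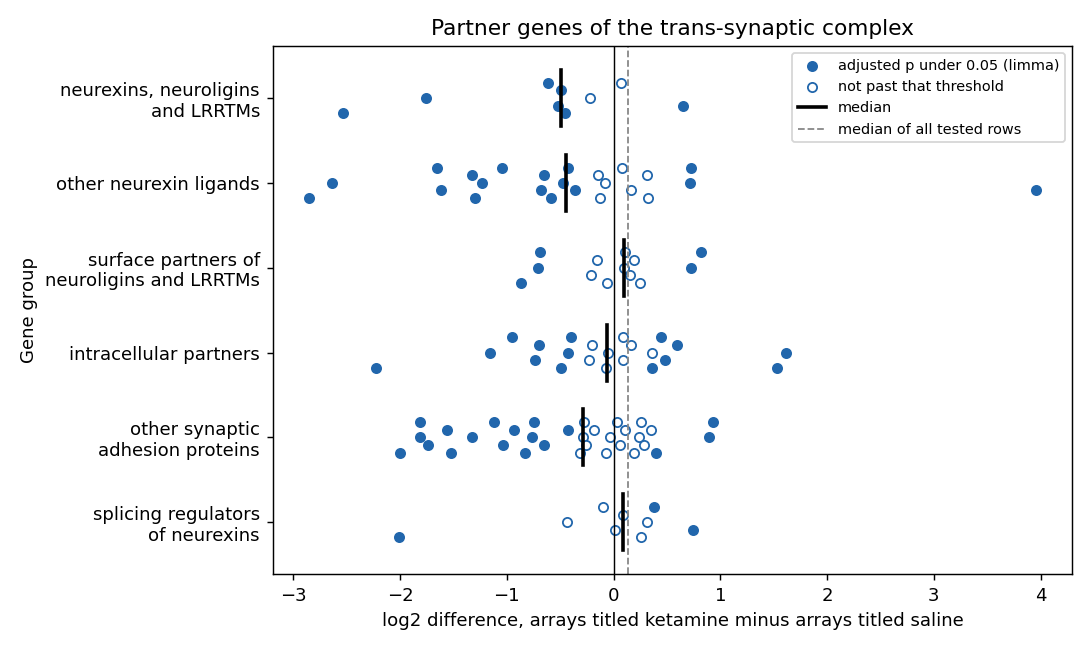
Log2 difference between arrays titled ketamine and arrays titled saline (x axis) for the 9 genes and the measured genes of the 5 partner lists (y axis). Filled points are genes that limma called and open points the others, their vertical spread is for legibility only, and a black bar gives each median. The medians run from -0.49 for the 9 genes to 0.095 for the surface partners and 0.091 for the splicing regulators, and Cbln1 at 3.96 is the point farthest to the right.

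The direction of each of the 9 genes was the same with any 1 array left out, with Nrxn2 between 0.014 and 0.12 on the log2 scale. Lrrtm1 ranged from -2.62 to -2.45, Lrrtm4 from -1.86 to -1.65 and Lrrtm3 from 0.53 to 0.77. The calls were less stable. With either array titled saline left out, some of the 9 genes lost their calls. With either array titled ketamine left out, all of the called genes lost their calls, and no call was left among all rows. In such a fit the lone array is assumed to vary like the other group. An exact permutation test (two-sided) cannot give less than p = 0.333 in this design.

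**Figure D5:**
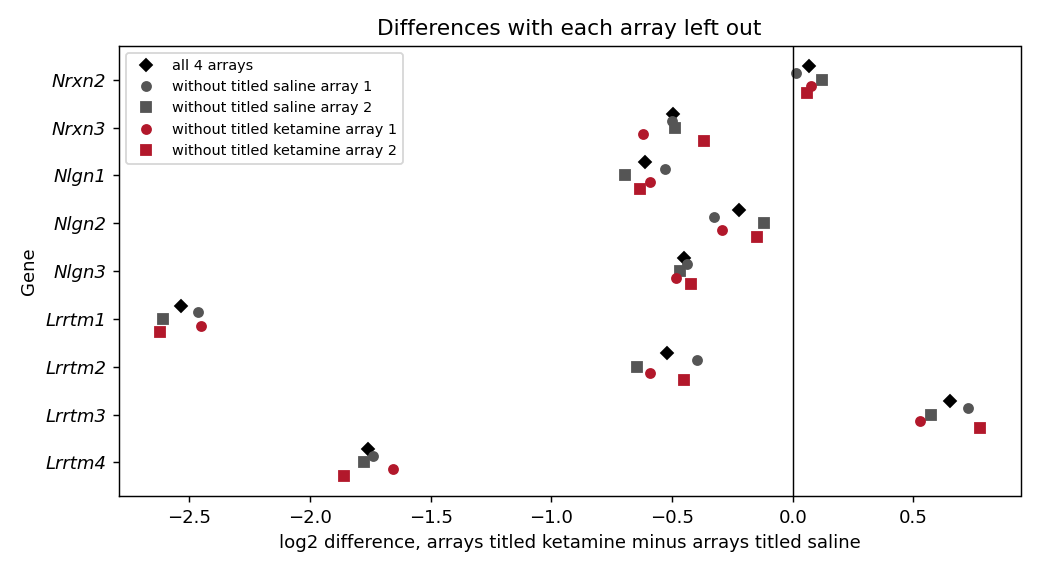
Log2 difference between arrays titled ketamine and arrays titled saline (x axis) for each gene (y axis) with all 4 arrays (black diamonds) and with 1 array left out, in grey for arrays titled saline, red for arrays titled ketamine, circles for array 1 and squares for array 2. No gene crosses 0, and Lrrtm1 stays between -2.62 and -2.45.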

How the data were processed

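The labels and the methods describe total RNA of mouse prefrontal cortex on 4 one-colour Affymetrix Mouse Gene ST arrays, 2 per group. Log2 values of expression were deposited by the authors, who made them by RMA (background correction, normalization between arrays and 1 value per transcript cluster) in Affymetrix Expression Console, whose version is not given in the sources used here. RMA is meant to give the arrays like distributions, and it compresses low values. Over the rows tested, the medians were 5.90 and 5.91 on the arrays titled saline and 6.04 on both titled ketamine. Of 35556 rows, 21789 carry exactly 1 gene symbol in the platform annotation, and these were tested with limma (version 3.58.1; R version 4.3.3) with the functions lmFit and eBayes and with Benjamini-Hochberg adjustment over all 21789 and a threshold of 0.05. The limma script was tested on simulated data. No row was removed for a low value, and 0 columns of sample values were left unused. Neither scanner files nor detection calls were used.

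The members, the partner and marker lists and the tests were chosen with earlier results of these data known. The text names every member, the 3 genes of each partner list with the largest absolute difference, genes of a list where a count of calls is 5 or fewer, the 3 rows nearest to the member with the largest difference each way, and up to 3 genes of the cerebellar and cortical lists. Of the marker lists, some genes that did not pass or went the other way are named too. A gene with several rows was represented by the row with the highest mean. Scaling, filter, rows tested, moderation, replicate number and each array were varied in turn.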

Additional observations from a re-analysis of the deposited data

How the results depend on the processing

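Past 1.3-fold, 6 of the 9 genes were lower and 1 higher. At 2-fold there were 2 lower and 0 higher, and the share of all rows past 2-fold was not counted. The median log2 difference of the 9 genes was -0.63 with each array centred on its median and -0.61 after quantile normalization of the arrays, and from -0.59 to -0.42 with 1 array left out. Nrxn2 changed sign, to -0.0689 and -0.0525, under these 2 scalings. With 1 array left out, limma called 0 to 4 of the 9 genes lower and 0 to 1 higher, and 0 to 31 partner genes lower and 0 to 10 higher; past 1.3-fold 5 to 6 of the 9 were lower and 1 higher. Over all 35556 rows Nrxn3 (adjusted p = 0.0625 from limma) and Lrrtm2 (adjusted p = 0.0628) lost their calls. The filter on low rows and the trend and robust options changed no call among the 9 genes. The deviations of same-numbered arrays correlated at 0.0340 across rows. With 2 arrays per group, this correlation cannot decide whether the replicate numbers pair the arrays. With the replicate number as a block, limma called 6 of the 9 genes lower and 1 higher, with the same call for each. The number of arrays limits the precision.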

Other observations

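Some families among the partner genes held members with different calls. Of the teneurins, Tenm1 was higher by 0.93 on the log2 scale, Tenm2 and Tenm3 had log2 differences of -1.33 and -2.00, and Tenm4, at -0.26, did not pass limma. Of the latrophilins, which bind teneurins and neurexins, Adgrl1 and Adgrl2 were at -0.68 and -1.23 and Adgrl3, at 0.17, did not pass. Shank1 and Shank3 were lower, at -0.95 and -0.49, where Shank2 was higher by 1.53, and Lin7b was at -1.16 where Lin7a and Lin7c were higher by 1.61 and 0.60. Members that the rule for named genes does not take were named here after their values were seen.

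Many deposited values were equal on both arrays of a group. This held for 916 of the 21789 rows tested on the arrays titled saline and 95 on those titled ketamine, against 1 equal pair between arrays of different groups. None of the 9 genes and 5 of the 101 partner genes, 3 of them called by limma, were among these rows, with Tafa1, Gpc4 and Khdrbs3 equal on the arrays titled saline. In an alternative chosen after seeing the data, without the 1003 rows equal within a group, limma again called 6 of the 9 genes lower and 1 higher, and 39 partner genes lower and 17 higher. The cause of the equal values was not tested.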
